A study of Mus musculus with 18 samples.

Results

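Interferon-linked PARP and TRIM genes were followed across RNA sequencing of J774.1 cells, a mouse macrophage line. The 10 genes were taken by symbol from the 18204 genes of the deposited table. They are Parp9, Parp10, Parp12, Parp14, Dtx3l, Zc3hav1, Trim21, Trim25, Trim30a and Xaf1, and all 10 passed the filter on low values. The 18 samples comprised 2 genotypes, wildtype and Ctbp1/2 dKO (CRISPR double knockout of both CTBP corepressors), and 3 treatments of 4 h, with 3 biological replicates in each of the 6 groups. Treatments were vehicle (PBS/DMSO), 1.5 mM MTOB, or 0.25 mM 4-Cl-HIPP. MTOB and 4-Cl-HIPP are ligands of the CTBP active site, and the series asked how specific they are for CTBPs. Wildtype and dKO cells were both chosen from monoclonal outgrowths of the edited line, and how many clones stand behind each genotype is not given in the sources used here. An effect of the knockout and a difference between clones cannot be told apart. Each genotype had 1 vehicle group, which served both inhibitors.

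Type I interferons bind a receptor on the cell surface, whose kinases JAK1 and TYK2 activate a transcription factor complex that includes IRF9. This complex binds interferon-stimulated response elements (ISREs) near antiviral genes. Among the genes induced in this way are several PARPs, which transfer ADP-ribose to proteins or bind it, and several TRIM proteins, most of which are ubiquitin ligases. In macrophages they act on viral RNA, on the sensing of nucleic acids and on the strength of the inflammatory response.

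Promoters of the 10 genes were searched for the letters of an ISRE or its shorter core, because these letters are what the transcription factors above recognise, and 3 of the sites found are shown. The window ran from 250 bases before to 50 bases after the annotated start of each gene (GRCm39, Gencode M39), and both strands were searched. The ISRE core, GAAA repeated after any 2 bases, was present in 2 of 10 windows, Trim21 and Trim30a, against 3.57% of 12268 promoters of the same length. The shorter IRF core AANNGAAA, which every ISRE core contains, was found in 6 of 10 windows (Parp10, Parp12, Trim21, Trim25, Trim30a and Xaf1), against 21.4% of promoters. A further motif, TTCNNNGAA, was also searched and found in 0 of 10 windows, against 7.73% of promoters. Both sites with the ISRE core, and that of Xaf1, the member with the largest MTOB difference in wildtype cells, are printed on the strand of the gene with the matched letters in capitals.
Trim21, chr7:102214654-102214683, minus strand: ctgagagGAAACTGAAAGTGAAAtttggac
Trim30a, chr7:104114417-104114446, minus strand: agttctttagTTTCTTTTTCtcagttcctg
Xaf1, chr11:72192427-72192456, plus strand: tgggcaaacacTTTCAGTTttgttttcctg
In Trim21 a pair of ISRE cores overlap within the first transcribed bases. Trim30a and Xaf1 carry their matches on the opposite strand. Parp14, with the next largest MTOB difference in wildtype cells after Xaf1, held neither core. A match to these letters is a description of the sequence only.

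Values are scaled TPM (a transcript level corrected for length and library size), and differences are log2 differences of TPM + 1, which understate the change of weakly expressed genes. A gene was called when the limma test gave an adjusted p (Benjamini-Hochberg over 16383 genes) below 0.05 together with a fold above 1.5. The words rose and fell are used for genes below that adjusted p, whatever the fold. Ctbp1 lay between 204 and 238 TPM in wildtype vehicle samples and between 24.4 and 25.6 TPM in dKO vehicle samples, and Ctbp2 between 87.8 and 96.9 and between 73.5 and 79.4 TPM. TPM was summed over the whole gene and does not measure protein. The authors reported loss of both CTBP proteins in the dKO cells by western blot. Of 8 macrophage markers, 7 were measured, and Cd68 reached 542 to 703 TPM, while no measured marker of another cell type exceeded 1.43 TPM. Adgre1, a macrophage surface marker, was 24.6 to 35.3 TPM in wildtype vehicle, 98.2 to 107 in wildtype MTOB and 7.94 to 10 in dKO vehicle samples. The other markers did not all follow it. By mean TPM in wildtype and dKO vehicle samples, Itgam (15.8 and 47.9), Fcgr1 (33.2 and 52.3) and Cd68 (554 and 643) were higher in dKO. Csf1r (896 and 860), Lyz2 (520 and 488) and Spi1 (241 and 230) were slightly lower. The part of these markers in the results was not tested. In bulk RNA, fewer cells of a kind and less RNA per cell cannot be told apart. Mitochondrial transcripts took 8.99% to 10.3% of TPM in 17 samples and 7.04% in dKO MTOB replicate 1. Values without this sample are therefore also given for Trim25, Parp14 and Trim30a.

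Mean levels over the 18 samples spanned an order of magnitude. Trim25 (73.7 TPM) and Zc3hav1 (60.7 TPM) were the most abundant, followed by Parp12 (36.0), Parp9 (25.9), Xaf1 (19.7), Dtx3l (16.1), Trim30a (13.3), Parp10 (13.2), Parp14 (9.87) and Trim21 (6.09). The weakest of them, Trim21, had a mean normalised count of 62.5 and stood at the 42.7th percentile by mean TPM of the genes that passed the filter. Parp9 and Dtx3l lie head to head on chromosome 16 (35758840 to 35792980, plus strand, and 35746881 to 35759521, minus strand), and their exons overlap by 367 bases. Because the library did not keep the strand, reads from that stretch cannot be assigned to either gene. It made up 9.57% of the 31-base stretches of Parp9. Trim30a shared 12.3% of its stretches with other transcripts, mainly Trim30d, which did not exceed 1.16 TPM.

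**Figure D1:**
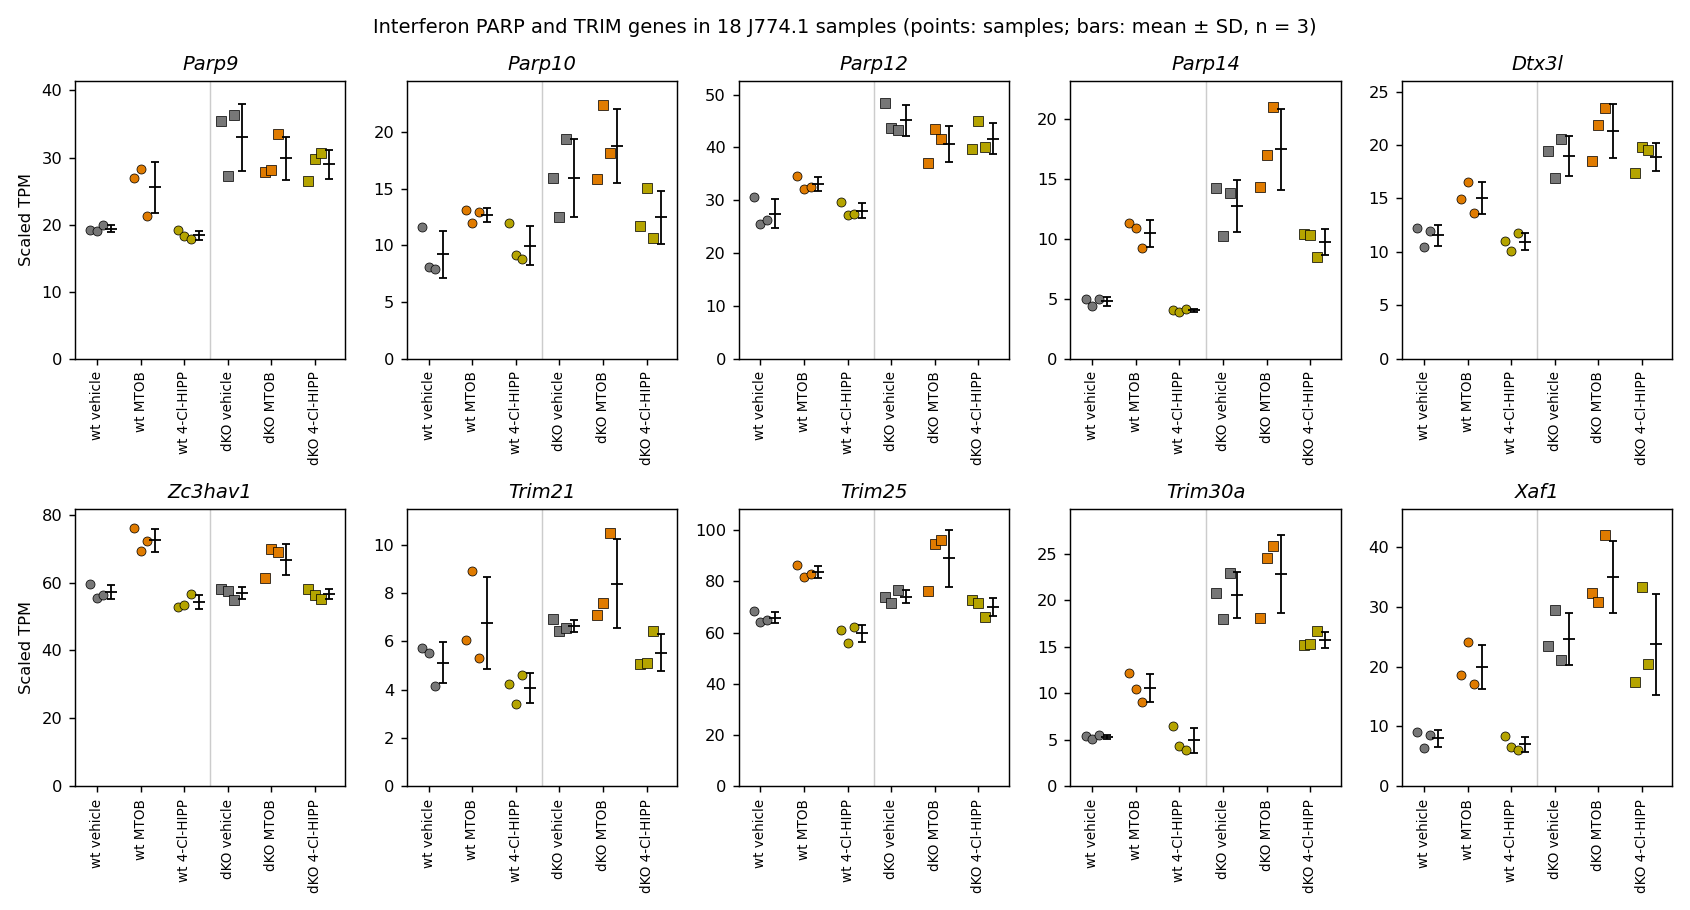
Scaled TPM of the 10 genes in each of the 18 samples (y axis, from 0; x axis, the 6 groups; wt, wildtype), with points for samples and bars for mean ± SD of 3 replicates. Parp14, Trim30a and Xaf1 are low in wildtype vehicle (4.35 to 9.12 TPM), intermediate with MTOB (9.09 to 24.1 TPM) and high in dKO vehicle samples (10.2 to 29.4 TPM, overlapping wildtype MTOB in Parp14 and Xaf1), whereas the vehicle samples of both genotypes overlap in Zc3hav1.

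MTOB in wildtype cells raised 6 of the 10 genes, and 3 of them, Parp14, Trim30a and Xaf1, were called with folds between 1.99 and 2.49 of mean TPM. Of all tested genes, 1.56% were called higher and 3.8% passed the adjusted p alone in that direction. All 10 differences were positive, as were 46.3% of all genes, and in 9 of 10 genes every MTOB sample lay above every vehicle sample, as in 10.6% of all genes. The median difference of the 10 genes was 0.36 on the log2 scale, against -0.01 over all genes tested.

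Xaf1 encodes a partner of the apoptosis inhibitor XIAP and is known as a pro-apoptotic interferon target. It measured 9.12, 6.42 and 8.52 TPM in wildtype vehicle samples and 18.7, 24.1 and 17.1 TPM in wildtype MTOB samples. The lowest treated sample was thus well above the highest control, and the log2 difference was 1.22 (SE 0.22, adjusted p = 0.00251, limma).

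Parp14, a mono-ADP-ribosyltransferase that also binds ADP-ribose through its macrodomains, measured 4.96, 4.35 and 5.00 TPM with vehicle and 11.3, 10.9 and 9.20 TPM with MTOB. The samples formed separate groups, and Parp14 rose by a log2 difference of 0.99 (SE 0.13, adjusted p = 0.000185, limma). The other transferases of the set showed smaller differences. Parp12, which carries RNA-type zinc fingers beside its catalytic domain, measured 30.6, 25.6 and 26.2 TPM with vehicle and 34.6, 32.1 and 32.4 TPM with MTOB, without overlap and with a log2 difference of 0.26 (SE 0.08, adjusted p = 0.0624, limma). Parp10, a transferase with a ubiquitin-binding region, measured 7.94 to 11.6 and 11.9 to 13.1 TPM, with a log2 difference of 0.44 (SE 0.18, adjusted p = 0.186, limma).

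Parp9 binds ADP-ribose and works in a complex with the ubiquitin ligase encoded by its neighbour Dtx3l. Parp9 measured 19.1, 19.1 and 20.0 TPM with vehicle and 27.0, 28.3 and 21.2 TPM with MTOB. The third treated sample was close to the controls, and the log2 difference of 0.37 (SE 0.11) missed the threshold (adjusted p = 0.0687, limma), which it passed without wildtype MTOB replicate 3 (0.49, adjusted p = 0.0175). Dtx3l measured 12.2, 10.4 and 11.9 TPM with vehicle and 14.9, 16.5 and 13.6 TPM with MTOB, a log2 difference of 0.35 (SE 0.10, adjusted p = 0.0440, limma). Dtx3l was borderline, as it missed the adjusted p of 0.05 on leaving out any of 5 of the 6 samples (adjusted p of Dtx3l up to 0.176). Reads shared by both genes were not separated.

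Zc3hav1 encodes ZAP, a PARP family member without transferase activity that binds CG-rich viral RNA, and Trim25 encodes a ubiquitin ligase that serves as its cofactor. They were the most abundant members and rose by small, regular steps. Zc3hav1 measured 59.6, 55.5 and 56.4 TPM with vehicle and 75.9, 69.2 and 72.3 TPM with MTOB, a log2 difference of 0.34 (SE 0.05, adjusted p = 0.000675, limma). Trim25 measured 68.3, 64.2 and 64.8 TPM with vehicle and 86.5, 81.9 and 82.8 TPM with MTOB, a log2 difference of 0.34 (SE 0.07, adjusted p = 0.00742, limma). In both genes replicates of a group differed by less than the gap between groups.

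Of the remaining TRIM genes, Trim30a encodes a mouse protein that restrains inflammatory signalling downstream of Toll-like receptors. It measured 5.37, 5.08 and 5.52 TPM with vehicle and 12.2, 10.4 and 9.09 TPM with MTOB, and rose by 0.86 (log2, SE 0.16, adjusted p = 0.00241, limma). Trim21, a cytosolic receptor for antibody-coated virus, ranged from 4.14 to 5.72 TPM with vehicle and from 5.31 to 8.93 TPM with MTOB. It was the only member in which these groups overlapped, with a log2 difference of 0.33 (SE 0.18, adjusted p = 0.361, limma).

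**Figure D2:**
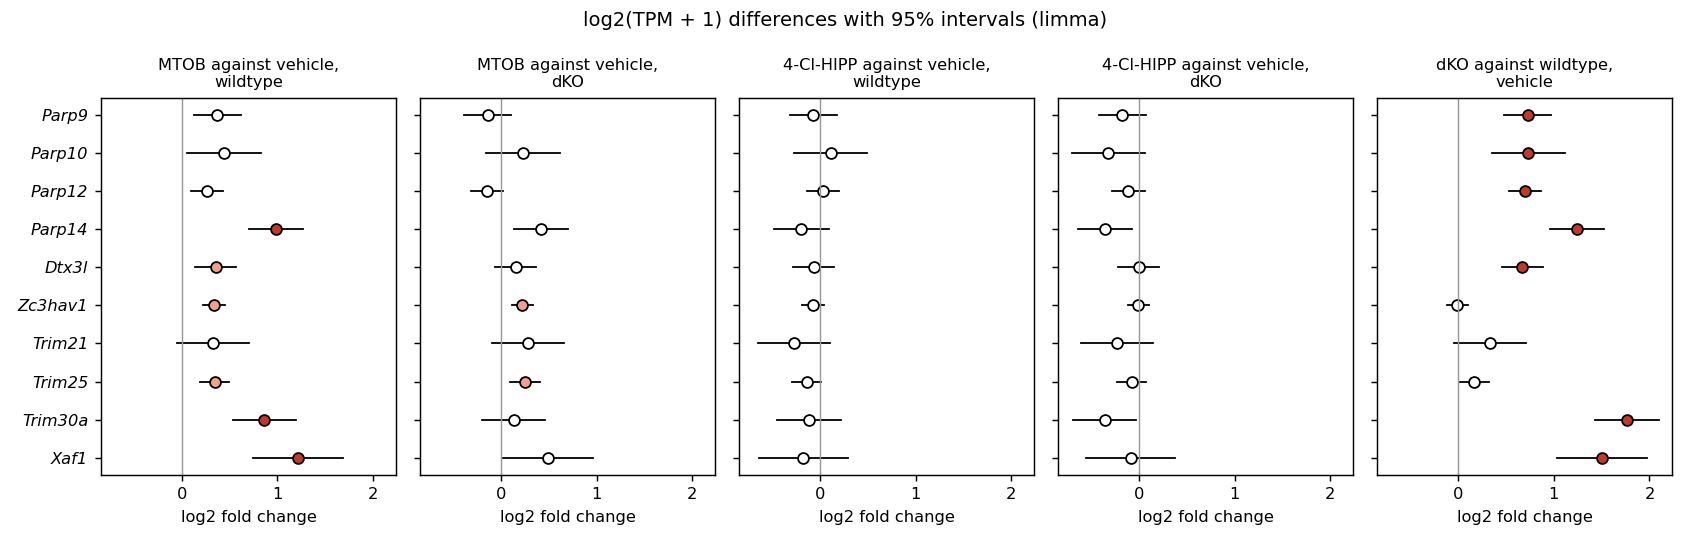
Log2 differences of TPM + 1 (x axis) for the 10 genes (rows) in 5 comparisons (panels), with 95% intervals from limma; dark red, called; light red, adjusted p below 0.05 with a fold under 1.5; white, neither. The 3 dark points under MTOB in wildtype lie between 0.86 and 1.22, and the 7 under dKO against wildtype between 0.67 and 1.77.

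In dKO cells MTOB raised 2 of the 10 genes, Zc3hav1 and Trim25, and called 0 by limma, with 4 genes at an unadjusted p below 0.05. Here and below, the share of all genes at an unadjusted p was counted for the interactions alone, so other such counts lack a background. Among all genes 1.15% were called higher and 3.04% passed the adjusted p alone in that direction. The differences were positive in 8 genes, as in 45.8% of all genes, and their median was 0.23 (log2), against -0.01 over all genes. In Parp14, Zc3hav1, Trim21 and Xaf1, 4 of 10, every treated sample exceeded every control, as in 9.51% of all genes.

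Zc3hav1 measured 58.2, 57.6 and 54.8 TPM in dKO vehicle samples and 61.4, 69.9 and 68.9 TPM in dKO MTOB samples, a log2 difference of 0.22 (SE 0.05, adjusted p = 0.0158, limma). It lost the threshold on leaving out dKO vehicle replicate 3, or MTOB replicate 2 or 3 (adjusted p of Zc3hav1 0.0614 to 0.0742). Trim25 measured 74.0, 71.6 and 76.7 TPM with vehicle and 76.2, 94.4 and 96.2 TPM with MTOB. Its first treated sample lay within the range of the controls, and the difference of 0.25 (log2, SE 0.07, adjusted p = 0.0477, limma) missed the threshold without any one of the other 5 samples (adjusted p of Trim25 up to 0.172). That first sample was the library with the low mitochondrial share, and without it Trim25 differed by 0.36 (adjusted p = 0.000753, limma).

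Parp14 measured 14.2, 10.2 and 13.8 TPM with vehicle and 14.3, 17.0 and 21.0 TPM with MTOB in dKO cells, with a log2 difference of 0.42 (SE 0.13, adjusted p = 0.0762, limma). The lowest treated sample barely exceeded the highest control. Without that sample, dKO MTOB replicate 1, the difference of Parp14 was 0.55 with an adjusted p of 0.0285. Xaf1 measured 23.4, 29.4 and 21.0 TPM with vehicle and 32.3, 30.7 and 42.0 TPM with MTOB, a log2 difference of 0.49 (SE 0.22, adjusted p = 0.239, limma). Trim30a overlapped between the groups, with 20.8, 18.1 and 23.0 TPM under vehicle and 18.1, 24.6 and 25.9 TPM under MTOB (0.13, SE 0.16, adjusted p = 0.736, limma). Parp9 and Parp12 were the members with negative estimates, -0.14 (SE 0.11) and -0.15 (SE 0.08). Dtx3l, Parp10 and Trim21 had differences of 0.16, 0.23 and 0.28 with adjusted p of 0.459, 0.557 and 0.443 (limma).

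Whether MTOB acted differently in the 2 genotypes was tested by the interaction of treatment and genotype. The wildtype difference exceeded the dKO difference in 10 of 10 genes, a share that was not counted over all genes. For Trim21 the sign changed on leaving out any 1 of 4 samples. For Trim25 it changed (-0.016) on leaving out dKO MTOB replicate 1, the library with the low mitochondrial share. Without that library Trim30a had a dKO difference of 0.29 and an interaction of 0.58, against 0.13 and 0.73 with all samples. The median interaction of the 10 genes was 0.31 (log2), against 0.01 over all genes. The limma test called 0 of the 10 genes, and 0.0916% of all genes. At an unadjusted p below 0.05 there were 5 members, against 6.89% of all genes. These were Trim30a (difference of log2 differences 0.73, SE 0.22, adjusted p = 0.437), Xaf1 (0.72, SE 0.31, adjusted p = 0.700), Parp14 (0.57, SE 0.19, adjusted p = 0.531), Parp9 (0.51, SE 0.16, adjusted p = 0.518) and Parp12 (0.41, SE 0.11, adjusted p = 0.365). For Zc3hav1, Trim25 and Trim21 the interaction was 0.11, 0.09 and 0.04, with 95% intervals from -0.05 to 0.27, from -0.13 to 0.31 and from -0.49 to 0.58. A larger response of these genes in wildtype cells was therefore not established, nor were equal responses shown.

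4-Cl-HIPP called 0 of 10 genes by limma in wildtype cells, with 0 at an unadjusted p below 0.05, and 0.14% of all genes were called in either direction. It also called 0 of 10 in dKO cells, with 2 at an unadjusted p below 0.05 (Parp14 and Trim30a), where 0.153% of all genes were called. The share of all genes at that unadjusted p was not counted in either genotype. Estimates were negative in 8 genes in wildtype and in 10 in dKO cells, with medians of -0.09 and -0.14 (log2), against 0.01 and 0.00 over all genes. Below 0 lay 44.3% and 46.4% of all genes.

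Parp14 measured 4.09, 3.90 and 4.14 TPM with 4-Cl-HIPP in wildtype cells, below each of its controls, with a log2 difference of -0.19 (95% interval -0.48 to 0.09). In dKO cells it measured 10.4, 10.3 and 8.44 TPM, a log2 difference of -0.36 (SE 0.13, adjusted p = 0.426, limma) with overlap of the groups. Trim30a in dKO cells measured 15.2, 15.3 and 16.7 TPM, below each of its controls, with the same log2 difference of -0.36 (SE 0.16, adjusted p = 0.526, limma). Trim25 in wildtype cells (55.9 to 62.2 TPM) and Trim21 in dKO cells (5.08 to 6.43 TPM) also lay below every control, with log2 differences of -0.14 and -0.23. Such separation downward was seen in 2 of 10 members in each genotype, and in 4.94% and 5.73% of all genes. For Xaf1 the samples were spread widely, from 17.5 to 33.4 TPM in dKO cells, and its interval of -0.56 to 0.38 allows a difference of either sign. The interaction for 4-Cl-HIPP called 0 members with limma, and 0 at an unadjusted p below 0.05, while 0% and 4.48% of all genes passed these limits.

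The inhibitors were given at different doses and from different solvents, PBS for MTOB and DMSO for 4-Cl-HIPP. Their values therefore stand side by side without a test, and both sets of differences share the vehicle samples. In wildtype cells the log2 difference of Xaf1 was 1.22 under 1.5 mM MTOB and -0.17 under 0.25 mM 4-Cl-HIPP. For Parp14 these values were 0.99 and -0.19, and for Trim30a 0.86 and -0.12. Zc3hav1 had 0.34 and -0.07, and Trim25 0.34 and -0.14.

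Loss of Ctbp1/2 under vehicle gave the largest median difference of the 5 comparisons. Of the 10 genes, 7 were called higher in dKO than in wildtype samples and 0 lower, where 3.28% of all genes were called higher. In 9 genes every dKO sample exceeded every wildtype sample, as in 15.1% of all genes, and the median of the 10 differences was 0.71 (log2) against 0.01 over all genes. The exception was Zc3hav1.

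Trim30a showed the widest gap. Its 20.8, 18.1 and 23.0 TPM in dKO vehicle samples stood against 5.08 to 5.52 TPM in wildtype, a ratio of means of 3.87 and a log2 difference of 1.77 (SE 0.16, adjusted p = 1.17e-06, limma). Xaf1, with 23.4, 29.4 and 21.0 TPM against 6.42 to 9.12 TPM, differed by 1.51 (SE 0.22, adjusted p = 0.000211, limma). Parp14, with 14.2, 10.2 and 13.8 TPM against 4.35 to 5.00 TPM, differed by 1.24 (SE 0.13, adjusted p = 9.04e-06, limma). These are the same 3 members that were called under MTOB in wildtype cells. That comparison used the same wildtype vehicle samples.

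Parp9, Parp10, Parp12 and Dtx3l differed by between 0.67 and 0.73 on the log2 scale. Parp12 measured 48.4, 43.6 and 43.3 TPM in dKO against 25.6 to 30.6 TPM in wildtype vehicle samples (0.70, SE 0.08, adjusted p = 1.79e-05, limma). Parp9 measured 35.5, 27.3 and 36.4 TPM against 19.1 to 20.0 TPM (0.73, SE 0.11, adjusted p = 0.000426, limma). Dtx3l measured 19.4, 16.9 and 20.6 TPM against 10.4 to 12.2 TPM (0.67, SE 0.10, adjusted p = 0.000248, limma). No sample of either genotype crossed into the range of the other in these genes. Parp10 measured 15.9, 12.5 and 19.4 TPM against 7.94 to 11.6 TPM (0.73, SE 0.18, adjusted p = 0.0138, limma), and lost the threshold without wildtype vehicle replicate 2 or 3 or dKO vehicle replicate 3 (adjusted p of Parp10 0.0635 to 0.0766).

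ZAP and the remaining TRIM genes behaved otherwise. Zc3hav1 had nearly equal means of 56.9 and 57.2 TPM in dKO and wildtype vehicle samples (log2 difference -0.01, 95% interval -0.12 to 0.10). Trim25, at 71.6 to 76.7 against 64.2 to 68.3 TPM, differed by 0.17 (SE 0.07, adjusted p = 0.179, limma). Trim21, at 6.45 to 6.91 against 4.14 to 5.72 TPM, differed by 0.33 (SE 0.18, adjusted p = 0.321, limma). Neither passed the test, although their samples did not overlap.

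The order of the 6 groups differed between the genes. In Parp9, Parp12, Dtx3l, Trim30a and Xaf1 the 3 dKO groups had the highest means and wildtype MTOB came next. In Parp9 and Xaf1 the range of wildtype MTOB overlapped those of dKO vehicle and dKO 4-Cl-HIPP. In Parp10 and Parp14 wildtype MTOB came just above dKO 4-Cl-HIPP, with overlapping ranges (means of 12.7 and 12.5 TPM, and of 10.5 and 9.69 TPM). Wildtype vehicle and wildtype 4-Cl-HIPP came last in the first 5 genes and in Parp10 and Parp14, and overlapped in all but Parp14. In Zc3hav1, Trim21 and Trim25 both MTOB groups had the highest means instead, with ranges that overlapped each other. In Trim21 wildtype MTOB also overlapped dKO vehicle, with means of 6.77 and 6.64 TPM. In Trim25 dKO MTOB (from 76.2 TPM) overlapped dKO vehicle (up to 76.7 TPM). Mean Zc3hav1 was 72.5 ± 3.4 TPM (SD, n = 3) in wildtype MTOB and 66.7 ± 4.6 TPM in dKO MTOB samples, and the other 4 groups lay between 54.3 and 57.2 TPM with overlap of each with the next. For Trim30a the order from the top was dKO MTOB (22.8 ± 4.2 TPM), dKO vehicle (20.6 ± 2.5), dKO 4-Cl-HIPP (15.8 ± 0.85), wildtype MTOB (10.6 ± 1.5), wildtype vehicle (5.32 ± 0.22) and wildtype 4-Cl-HIPP (4.93 ± 1.4), where only the first and the last neighbouring pairs overlapped.

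Likeness of profile was measured as the mean absolute difference of standardised log2 values over the 18 samples, among 9287 genes with a mean normalised count of at least 50. By this measure the gene nearest to Parp14 was Usp18, an inhibitor of interferon receptor signalling, at 0.12, and the gene nearest to Trim30a was Ddx58, the RNA sensor RIG-I, at 0.13. The median distance from these members to all genes was 1.17 and 1.15. Parp9 was nearest to Rnf213 (0.23), Parp12 to Ifi44 (0.24), Dtx3l to Oas2 (0.20) and Xaf1 to Fcrl1 (0.20). Parp10 was nearest to Plekhb2 (0.33), Zc3hav1 to Abr (0.25), Trim25 to Bid (0.25) and Trim21 to Ppp1r10 (0.38). Among the members themselves, Trim30a and Dtx3l were nearest to each other (0.23), as were Zc3hav1 and Trim25 (0.44). Many genes outside the set were closer. Among all genes compared, Dtx3l ranked 20 from Trim30a and Trim30a ranked 13 from Dtx3l. Trim25 ranked 109 from Zc3hav1, and Zc3hav1 ranked 95 from Trim25. These distances describe 18 samples that share their groups, and carry no test.

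The signalling genes upstream of the members were described from a list of 21, of which 17 were tested. The ligand Ifnb1 was listed at 0 in the 9 wildtype samples, and in 4 of the 9 dKO samples it reached 0.78 to 1.3 TPM. It was 0 in every dKO 4-Cl-HIPP sample. Its mean normalised count over the 18 samples was 0.577, so these values are near the floor and no difference is read from them. Ifna2, Ifna4, Ifnl2 and Ifng were not analysed here. Under MTOB in wildtype cells 2 genes were called higher, the transcription factor Irf7 (1.13, SE 0.16, adjusted p = 0.00032, limma) and Usp18 (1.58, SE 0.14, adjusted p = 3.24e-06, limma). Another 2 (Irf9 and Jak2) rose by less, and 3 fell, the receptor chains Ifnar2 and Ifngr1 and the inhibitor Socs3. Under MTOB in dKO cells 0 were called by limma and 6 had an unadjusted p below 0.05. Of these Irf1, Irf9 and Usp18 rose and Ifngr1 fell by less than 1.5-fold on the scale of TPM + 1. In dKO against wildtype vehicle samples Jak2, Irf7, Usp18 and Irf9 were among the genes called higher. The largest of these differences was in the kinase Jak2, 2.62 (SE 0.07, adjusted p = 6.44e-13, limma). 4-Cl-HIPP called 0 in either genotype by limma, with 5 and 7 at an unadjusted p below 0.05, and raised Socs3, a feedback inhibitor of JAK kinases, by 0.53 and 0.54 (SE 0.08). Shares of all genes at an unadjusted p were not counted for these comparisons.

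**Figure D3:**
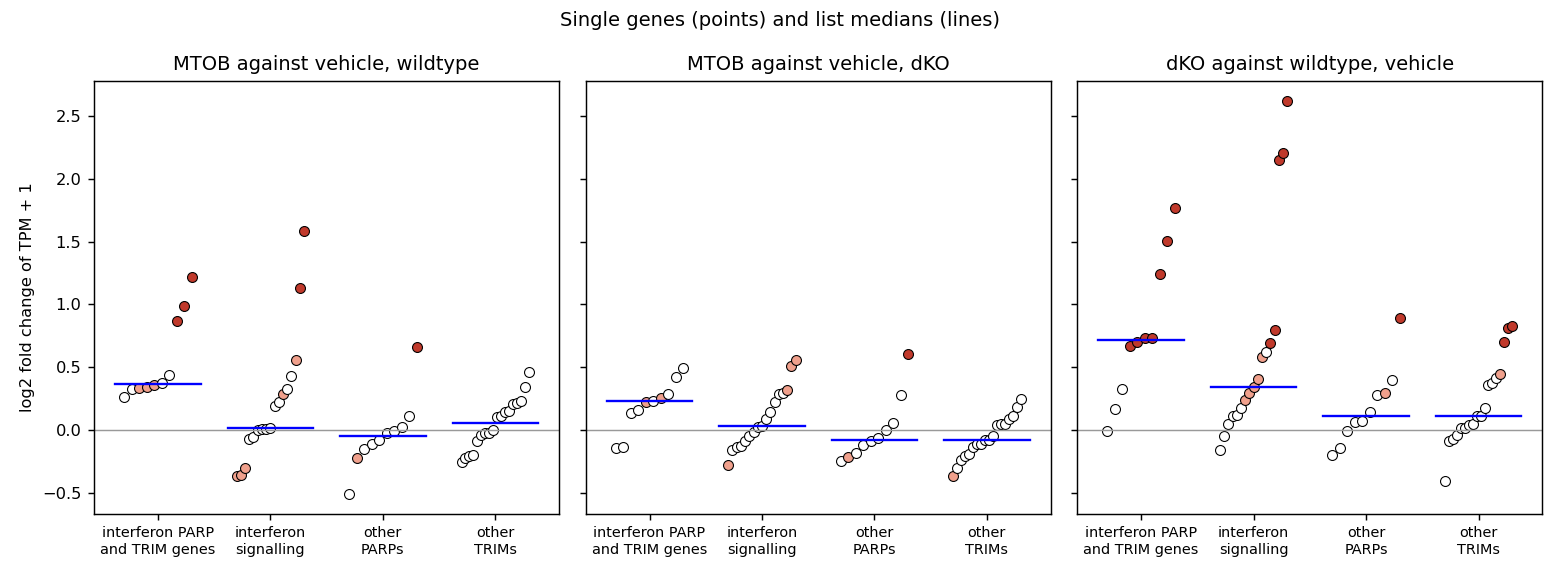
Log2 differences of TPM + 1 (y axis) of single genes (points) with list medians (blue lines) for the 10 genes and 3 lists (x axis) in 3 comparisons (panels); dark red, called; light red, adjusted p below 0.05 with a fold under 1.5; white, neither. The median of the 10 interferon PARP and TRIM genes is 0.36, 0.23 and 0.71, and that of the other TRIM genes 0.05, -0.08 and 0.11.

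Other members of both families were also called. For comparison, 1.56% of all genes were called higher under MTOB in wildtype and 1.15% in dKO cells. In dKO against wildtype vehicle samples 3.28% were called higher. Of 10 tested PARP genes outside the set, 1 was called under MTOB in each genotype, Parp16, a transferase of the endoplasmic reticulum. It measured 5.30 to 6.92 TPM in wildtype vehicle and at least 10.4 TPM in wildtype MTOB samples (0.66, SE 0.12, adjusted p = 0.00203, limma), and rose by 0.60 (adjusted p = 0.00465, limma) in dKO cells. Parp1, the main DNA damage PARP, fell by 0.22 and 0.21. Against wildtype vehicle, 1 was called in dKO samples, Parp11, with 14.2 to 15.6 against 6.68 to 8.04 TPM (0.89, SE 0.13, adjusted p = 0.000184, limma). Of 18 other TRIM genes, limma called 0 under MTOB in either genotype, with 6 and 2 at an unadjusted p below 0.05. In dKO against wildtype vehicle samples 3 were called higher, Trim12c (0.83), Trim34a (0.82) and Trim14 (0.70), and Trim33 rose by 0.45. Trim34a did not exceed 1.94 TPM in these samples. 4-Cl-HIPP called 0 genes of either list in either genotype by limma, with at most 1 at an unadjusted p below 0.05 per list and genotype. The median differences of the other PARP and TRIM genes under MTOB in wildtype cells were -0.05 and 0.05, and the 3 comparisons above are set beside those of the 10 genes in the plot of single genes and list medians.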

How the data were processed

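RNA sequencing covered 18 samples of J774.1 cells, assigned to groups from their genotype and treatment labels. The authors quantified transcripts with Salmon 1.9.0 on GRCm39 with GC correction. The authors deposited 1 table of 18204 genes, with TPM per sample (each column summed to between 999766 and 999897) and a signal per gene, the mean normalised count from DESeq2 1.44.0. It also held log2 fold changes and adjusted p-values that the authors computed for each inhibitor, which were not used. Depth per sample is unknown from TPM and sets no interval here. The labels name polyA RNA and the methods an unstranded kit with rRNA depletion.

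Here, log2(TPM + 1) of 16383 genes with a mean normalised count above the 10th percentile (0.222) was fitted with limma 3.58.1 (R 4.3.3), with 6 group means, all samples, and empirical Bayes variances that followed a trend on the log2 mean normalised count. Values were adjusted by Benjamini-Hochberg within each of 7 comparisons, and a gene was called at a fold above 1.5 with an adjusted p-value below 0.05 (for interactions, that p alone). The fit was tested on simulated data. Named genes were the 10 members, the targeted genes, the called genes of each list (up to 4 of largest difference per comparison) and the nearest profile of each member. Genes below the fold limit, and the markers and Ifnb1, were named after their values were seen. Results that need 1 item of the signalling list are not reported here. The members and lists were chosen with earlier results of these data known. Motifs were searched in GRCm39 from Gencode M39 canonical starts, and 31-base stretches compared with all annotated transcripts. Pseudocount, filter, scaling, trend, replicate block, samples fitted and single replicates were varied. Figures used matplotlib 3.10.9.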

Additional observations from a re-analysis of the deposited data

Results flagged for a closer look

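Parp12 was picked out because its 3 wildtype MTOB samples all lay above the mean of their vehicle samples and its 3 dKO MTOB samples all lay below theirs. The mean difference in TPM was 5.58 in wildtype and -4.41 in dKO cells. In dKO cells the ranges overlapped (36.9 to 43.5 TPM with MTOB, 43.3 to 48.4 TPM with vehicle). The interaction test gave 0.41 on the log2 scale (SE 0.11, adjusted p = 0.365, limma), so a difference between genotypes did not pass the threshold. Without any one of the 12 samples the interaction of Parp12 stayed between 0.34 and 0.49, with adjusted p between 0.173 and 0.563.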

How the results depend on the processing

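The count of members called stayed at 3 for MTOB in wildtype cells and at 0 for MTOB in dKO cells, both 4-Cl-HIPP comparisons and both interactions when any 1 sample was left out, and lay between 6 and 7 for dKO against wildtype. Counts at an adjusted p below 0.05 then ranged from 5 to 7, from 0 to 3 (2 with all samples) and from 6 to 7 for MTOB in wildtype, MTOB in dKO and dKO against wildtype. For MTOB in dKO cells that count was 1 without a filter, without a variance trend and with the replicate block, and 0 when the fit held the compared groups alone. Parp14, Trim30a, Xaf1, Zc3hav1 and Trim25 under MTOB in wildtype, and Parp9, Parp12, Parp14, Dtx3l, Trim30a and Xaf1 in dKO against wildtype, stayed below 0.05 in every alternative. Dtx3l under MTOB in wildtype did not with a pseudocount of 5 (adjusted p 0.0588), without a filter (0.05004), without a trend (0.0618), with the block (0.0559) or with the compared groups only (0.123). A pseudocount of 5 left 5 members called in dKO against wildtype, with Parp10 (0.56) and Dtx3l (0.54) short of 1.5-fold. Parp10 in dKO against wildtype was lost with the compared groups only (0.112), as were Zc3hav1 (0.156) and Trim25 (0.298) under MTOB in dKO cells. Parp9 and Parp12 under MTOB in wildtype and Parp14 under MTOB in dKO passed among genes with a mean normalised count of at least 10 (0.0437, 0.0453 and 0.0458), and Parp12 with median-ratio scaling (0.0394).

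For the lists, a pseudocount of 0.1 called 1 interferon signalling gene under MTOB in dKO cells and 1 in the MTOB interaction (0 otherwise). A pseudocount of 5 called 0 other PARPs under MTOB in either genotype (1 otherwise) and 1 other TRIM in dKO against wildtype (3 otherwise). The count limit of 10 called 1 interferon signalling gene under 4-Cl-HIPP in dKO cells and 1 in the MTOB interaction. Fits of the compared groups only called 0 other PARPs under MTOB in dKO cells and 0 other TRIMs in dKO against wildtype. Leaving out 1 sample gave ranges of 2 to 3, 0 to 2, 0 to 1, 0 to 1 and 0 to 1 interferon signalling genes for MTOB in wildtype, MTOB in dKO, 4-Cl-HIPP in wildtype, 4-Cl-HIPP in dKO and the MTOB interaction. The same gave 0 to 1 other PARPs under MTOB in each genotype and 1 to 3 other TRIMs in dKO against wildtype. The cause of these changes was not tested.

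Signs turned only in estimates near 0 that passed no test, and only on leaving out 1 sample. The log2 ranges were -0.028 to 0.023 for Zc3hav1 in dKO against wildtype, -0.014 to 0.27 for Parp10, -0.017 to 0.11 for Parp12 and -0.30 to 0.0031 for Trim30a under 4-Cl-HIPP in wildtype. They were -0.081 to 0.051 for Dtx3l, -0.034 to 0.0097 for Zc3hav1 and -0.35 to 0.094 for Xaf1 under 4-Cl-HIPP in dKO cells. For the MTOB interaction they were -0.15 to 0.20 for Trim21 and -0.016 to 0.15 for Trim25, and for the 4-Cl-HIPP interaction -0.13 to 0.013 for Dtx3l, -0.16 to 0.060 for Trim21 and -0.27 to 0.18 for Xaf1.

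No pairing of samples by replicate number was seen, though deviations from means of 3 samples cannot exclude it. Deviations from group means of same-numbered samples correlated between -0.141 and 0.0909 over 45 pairs, and those of differently numbered samples between -0.128 and 0.139 over 90 pairs. With the replicate block the members called were 3 for MTOB in wildtype and 7 for dKO against wildtype, as without it, and among members only Dtx3l (MTOB in wildtype) and Trim25 (MTOB in dKO, adjusted p 0.0737) no longer had an adjusted p below 0.05. Depth could not be read from TPM, so no detection limit is given.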
